A study of Mus musculus with 14 samples.

Results

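*Nhlh1* and *Nhlh2* were followed through every library of a single-cell RNA sequencing study of the mouse *Atoh1* lineage. Both genes were taken by their symbols from the 31054 gene rows that all 14 libraries share, so the set holds 2 genes of 31054. *Atoh1*-lineage cells carry the red fluorescent reporter TdTomato and were sorted on it before sequencing on the 10x 3′ platform, which counts unique molecular identifiers (UMIs). Control animals carried the alleles Atoh1Cre/+ and Rosa lsl-tdTomato/+, and mutants (Atoh1S193A/-) carried Atoh1Cre/S193A with the same reporter, all on C57BL/6J. In the Cre knock-in allele the *Atoh1* coding region is replaced, so controls also have a single working copy of *Atoh1*, and in mutants the other copy encodes a hypomorphic protein with alanine in place of serine. Hindbrain cells came from 3 control and 3 mutant embryos at embryonic day E14.5 and again at E18.5, with 1 library per embryo and littermates paired by replicate number. At postnatal day (P) 5 the dissected pontine nuclei gave 2 control libraries, each a pool of 11 to 13 pups. After filtering, 80250 of 150188 barcodes were kept as cells, with 34425 at E14.5, 31819 at E18.5 and 14006 at P5.

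NHLH1 and NHLH2 are closely related basic helix-loop-helix transcription factors that are best known from newborn, postmitotic neurons. They bind E-box DNA as dimers with the E proteins (*Tcf3*, *Tcf4* and *Tcf12*) and can associate with LIM-only proteins (the *Lmo* genes), whereas the ID proteins capture E proteins in complexes that cannot bind DNA. The *Atoh1* lineage leaves the rhombic lip of the hindbrain to form cerebellar granule cells, unipolar brush cells and the mossy-fibre neurons of the pontine nuclei (PN), and mice that lack both *Nhlh* genes form precerebellar nuclei such as the PN poorly.

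*Nhlh1* (ENSMUSG00000051251) lies on the minus strand of chromosome 1 at 172052292 to 172057573 in GRCm38, with 1 transcript of 2 exons in GENCODE M21. Its coding sequence of 399 bases (133 codons with the stop) sits wholly in 1 exon, at 172053899 to 172054297. *Nhlh2* (ENSMUSG00000048540) lies on the plus strand of chromosome 3 at 102010076 to 102015492, with 3 transcripts of 2 to 3 exons and a coding sequence of 405 bases (135 codons) at 102012654 to 102013058, also within 1 exon. The sequence before each start site is shown because both genes were high in the same migrating cells and NHLH proteins, ATOH1 and NEUROD factors all bind E-boxes (CANNTG). Matches to that motif are in capitals, and the sequences are from RefSeq for GRCm38.p6.
Nhlh1, chr1:172057597-172057846, minus strand, 250 bases: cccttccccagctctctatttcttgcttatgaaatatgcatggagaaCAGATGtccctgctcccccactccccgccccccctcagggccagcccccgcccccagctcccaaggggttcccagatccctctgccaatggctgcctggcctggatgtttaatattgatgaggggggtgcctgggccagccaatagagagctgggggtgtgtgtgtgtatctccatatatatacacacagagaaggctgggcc
Nhlh2, chr3:102009895-102010075, plus strand, 181 bases: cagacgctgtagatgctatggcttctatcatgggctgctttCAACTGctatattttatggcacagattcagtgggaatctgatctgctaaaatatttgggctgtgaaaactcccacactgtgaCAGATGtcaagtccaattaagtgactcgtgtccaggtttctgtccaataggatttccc
The *Nhlh2* stretch was ended before the GENCODE gene start, which lies upstream of the RefSeq start site at 102010145. *Nhlh1* held 1 E-box, CAGATG, 203 bases before its start site, and *Nhlh2* held CAACTG 209 bases and CAGATG 127 bases before its own. On either strand, CAGATG was found in 14.4% of 32851 mouse promoter stretches of 250 bases and in 10.9% of stretches of 181 bases. Any E-box was found in 66.2% and 55.7%, and at least 2 in the shorter stretch in 21%. The palindrome CAGCTG, present in 13.0% and 9.27% of stretches of those lengths, had no match in either gene's stretch.

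Total UMIs per library ranged from 121762137 to 193872318 at E14.5, from 108239001 to 183911797 at E18.5 and from 160411671 to 236964126 at P5. Any 2 libraries shared between 13 and 67 cell barcodes. *Atoh1*, the altered gene, was read in controls and mutants alike, since 3′ UMIs cannot separate its alleles. It stood at 137, 55.0 and 57.5 UMIs per 1000000 (CPM) in E14.5 controls against 144, 86.2 and 100.3 CPM in mutants. At E18.5 it stood at 34.4, 35.4 and 28.6 CPM in controls against 54.0, 45.9 and 31.7 CPM in mutants, and at P5 at 2.36 and 3.84 CPM. The E14.5 difference was called with a littermate block (log2 change 0.48, adjusted p = 0.0390 by edgeR's quasi-likelihood test with Benjamini-Hochberg adjustment, against 0.39 and 0.714 without it). With that block 17.4% of all genes were called. In the PN-like states described below, the blocked *Atoh1* change ran from -0.34 in progenitors to 0.82 in differentiated neurons. Of these states it was called only in migrating neuron-2 (0.74, adjusted p = 0.00721 by the same test). Libraries of pair 2 at E14.5 stood apart from those of pairs 1 and 3: of the 2 clusters of *Crabp1* and *Robo3* cells in the PN lineage, 1 held 619 and 470 cells of pair 2 and at most 29 of any other library, while the other held 236 to 382 cells of each library of pairs 1 and 3 and at most 4 of pair 2. Library 2 at P5 held almost all cells of 2 granule-like clusters, so P5 values are given with and without them.

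*Nhlh1* was higher at E18.5 than at E14.5 in all sorted control cells, and *Nhlh2* did not pass the test. *Nhlh1* stood at 54.1, 52.7 and 36.4 CPM in the E14.5 controls and at 77.6, 74.6 and 62.3 CPM in the E18.5 controls, so the stages did not overlap. *Nhlh2* stood at 134, 138 and 100.3 CPM at E14.5 and at 155, 159 and 139 CPM at E18.5, which also did not overlap, although the gap from 138 to 139 CPM was narrow. The log2 change from E14.5 to E18.5 was 0.50 for *Nhlh1* (SE 0.147, adjusted p = 0.0243, edgeR quasi-likelihood test) and 0.20 for *Nhlh2* (95% interval -0.07 to 0.48, adjusted p = 0.183). With 1 library left out the *Nhlh2* change ran from 0.09 (without E14.5 control 3) to 0.28 (without E14.5 control 2), and it was not called. Of 10291 genes, 26.5% rose between these stages by the same rule (an adjusted p under 0.05 and an absolute log2 change over 0.25), so a rise alone did not set *Nhlh1* apart. The *Nhlh1* call was lost without E18.5 control 1 (0.46, adjusted p = 0.0847) or E18.5 control 2 (0.46, adjusted p = 0.0897), at a change close to that of all 6 libraries, and with a mitochondrial limit of 10% in place of 5% *Nhlh2* was called as well (log2 change 0.30, adjusted p = 0.0474). In these pooled cells, more cells of a type and more RNA per cell cannot be told apart. At P5 *Nhlh1* stood at 0.135 CPM in library 1 and 6.24 CPM in library 2, and *Nhlh2* at 24.4 and 38.6 CPM. P5 was a different dissection and was not in the fit.

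In PN-like cells at E14.5, both genes were near 0 in progenitors, climbed in intermediate progenitors and were highest in the migrating neurons. They fell again in differentiated neurons. PN-like cells were the 7282 cells of 5 clusters that expressed *Hoxb2* to *Hoxb5*, *Pax6* and *Barhl1*. They were divided into 5 states by markers that did not include the *Nhlh* genes. The state names follow the paper, which used *Nhlh1* as its marker of migrating neurons in the same libraries. The *Nhlh1* peak in the migrating states was therefore not independent of how those states were first named. In control progenitor-like cells *Nhlh1* stood at 2.06, 1.98 and 1.87 CPM, and in intermediate progenitor-like cells at 23.9, 26.7 and 20.2 CPM. Migrating neuron-1-like cells had 163, 218 and 176 CPM, and migrating neuron-2-like cells 225, 229.7 and 204 CPM. Differentiated neuron-like cells had 42.7, 83.7 and 25.5 CPM. The order of the means was migrating neuron-2 (219 ± 13.6 CPM, SD, n = 3), migrating neuron-1 (186 ± 28.9), differentiated neuron (50.6 ± 29.9), intermediate progenitor (23.6 ± 3.29) and progenitor (1.97 ± 0.0991). The ranges of the 2 migrating states overlapped, as did those of differentiated neurons and intermediate progenitors, while the migrating states lay above every other state in each library.

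*Nhlh2* followed the same course at its own scale. It stood at 2.75, 2.38 and 4.36 CPM in control progenitor-like cells and at 47.1, 69.9 and 36.5 CPM in intermediate progenitor-like cells. Migrating neuron-1-like cells had 348, 359 and 307 CPM, and the next state, migrating neuron-2, had 556, 521 and 518 CPM. The differentiated state had 176, 300.3 and 129.7 CPM. No neighbouring states of *Nhlh2* overlapped across the 3 control libraries. In differentiated neurons it kept a larger part of its migrating neuron-2 level (202 ± 88.2 CPM against 532 ± 21.4 CPM) than *Nhlh1* did. The high differentiated values of both genes came from pair 2, in which the mutant was also the highest of its group (75.0 CPM for *Nhlh1* and 279.7 CPM for *Nhlh2*). Of control migrating neuron-2-like cells, 94.8% held a UMI of *Nhlh1* and 99.3% a UMI of *Nhlh2*, against 4.1% and 6.5% of progenitor-like cells.

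**Figure D1:**
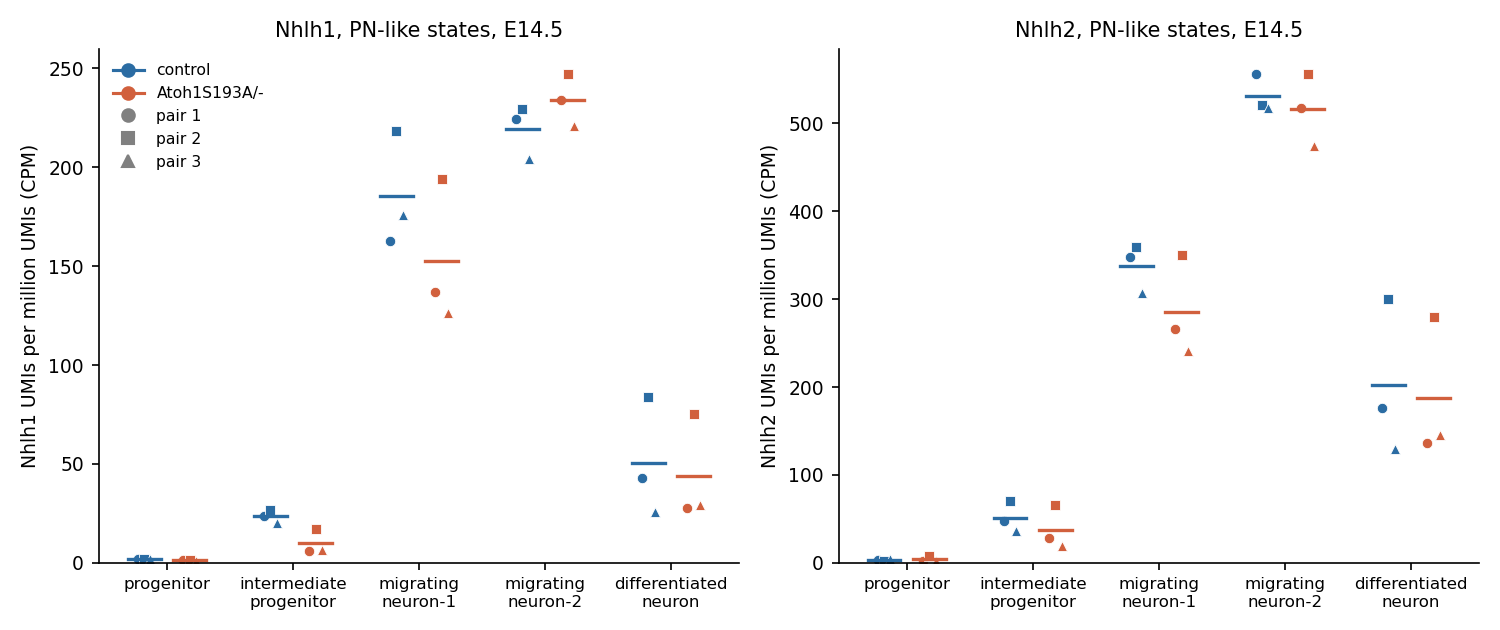
UMIs per 1000000 (CPM) of Nhlh1 (left) and Nhlh2 (right) in each of the 5 PN-like states of E14.5, 1 point per library with the marker shape giving the littermate pair and the bar the mean of 3 control (blue) or 3 Atoh1S193A/- (orange) libraries. Both genes are near 0 in progenitors and highest in migrating neuron-2-like cells (Nhlh1 204 to 247 CPM, Nhlh2 475 to 557 CPM), and the control and mutant points of Nhlh1 are apart in intermediate progenitors.

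Along a diffusion pseudotime of the PN-like cells, built without either gene, the mean rank of *Nhlh1* UMIs was lower than that of *Nhlh2* UMIs. The 7260 cells used were ranked from 0 at the root, the cell with the highest score of progenitor markers, to 100. Each gene was given the mean rank of the cells, weighted by its UMIs as a share of each cell's total UMIs. That weighted mean is what is called the mean rank of UMIs here. In controls *Nhlh1* rose from 2.71 ± 1.85 CPM in decile 2 of the cells to 263 ± 20.9 CPM in decile 6, with 30.7 ± 12.2 CPM in decile 9 and 5.31 ± 3.05 CPM in decile 10. *Nhlh2* was at 536 ± 46.0 CPM in decile 6 and still at 525 ± 10.4 CPM in decile 7, and it ended at 71.8 ± 12.9 CPM. Both genes rose over the same deciles, with *Nhlh1* at 23.6 and *Nhlh2* at 50.5 CPM in decile 3. They stood at 90.7 and 202 CPM in decile 4, and at 103 and 327 CPM in decile 8. The rank of *Nhlh2* minus that of *Nhlh1* was 4.42, 2.61 and 5.91 in controls 1 to 3 and 3.98, 1.70 and 3.95 in mutants 1 to 3. It was positive in 6 of 6 libraries, with a mean of 3.76 ± 1.46 (exact two-sided sign-flip test, p = 0.031, the smallest that 6 libraries allow). With each cell thinned to 5000 UMIs and counted once if it held the gene, the mean was 3.96 ± 2.59. In mutant 2 both genes then had a rank of 54.8. That p takes the 6 libraries as independent, although they were 3 littermate pairs. Over the 3 pair means, a test added after the data were seen, the exact sign-flip p was 0.25, the smallest that 3 pairs allow, so the order of the genes could not pass at that level. The rank of *Nhlh1* was 55.5 ± 0.945 in controls and 55.5 ± 0.678 in mutants, and that of *Nhlh2* was 59.8 ± 2.02 and 58.7 ± 1.95, with exact permutation p = 1 and p = 0.6 between genotypes, where 3 against 3 libraries cannot go below 0.1.

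**Figure D2:**
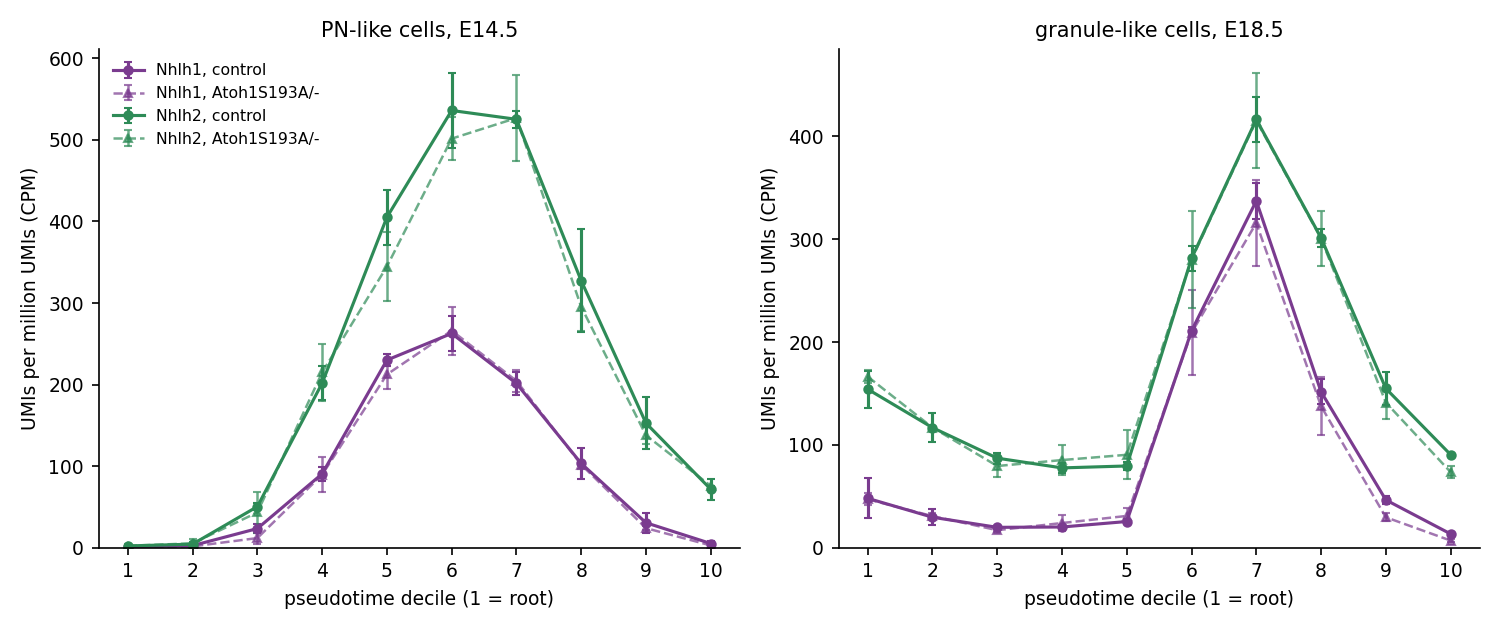
UMIs per 1000000 (CPM, mean ± SD of 3 libraries unless stated) of Nhlh1 (purple) and Nhlh2 (green) in deciles of diffusion pseudotime. E14.5 PN-like cells are left and E18.5 granule-like cells right, with controls as solid and Atoh1S193A/- as dashed lines. In decile 10 of PN-like cells the mutant point is of 2 libraries, without mutant 2, which had fewer than 10 cells there. Nhlh1 peaks in decile 6 of PN-like cells (263 CPM in controls) while Nhlh2 stays level to decile 7 (536 and 525 CPM), and in granule-like cells both peak in decile 7 after an early level that is larger for Nhlh2.

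The 2 genes were often found in the same cells. To compare cells of unequal depth, each was thinned to 5000 UMIs, which left out 328 of 16168 control cells at E14.5. At that depth 15.4% ± 2.22 of control cells held *Nhlh1*, 32.7% ± 2.82 held *Nhlh2* and 10.4% ± 1.62 held both (without thinning, 26.6% ± 3.84 held *Nhlh1* and 55.4% ± 4.04 held *Nhlh2*). *Nhlh2* was seen in 67.6% ± 2.00 of the cells that held *Nhlh1* and in 26.3% ± 2.49 of those that did not. Within migrating neuron-2-like cells these shares were 89.0% ± 1.43 and 90.3% ± 3.12, and both genes were seen in 56.4% ± 2.75 of the cells. Shares of this kind depend on depth, and counting error remains in each.

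**Figure D3:**
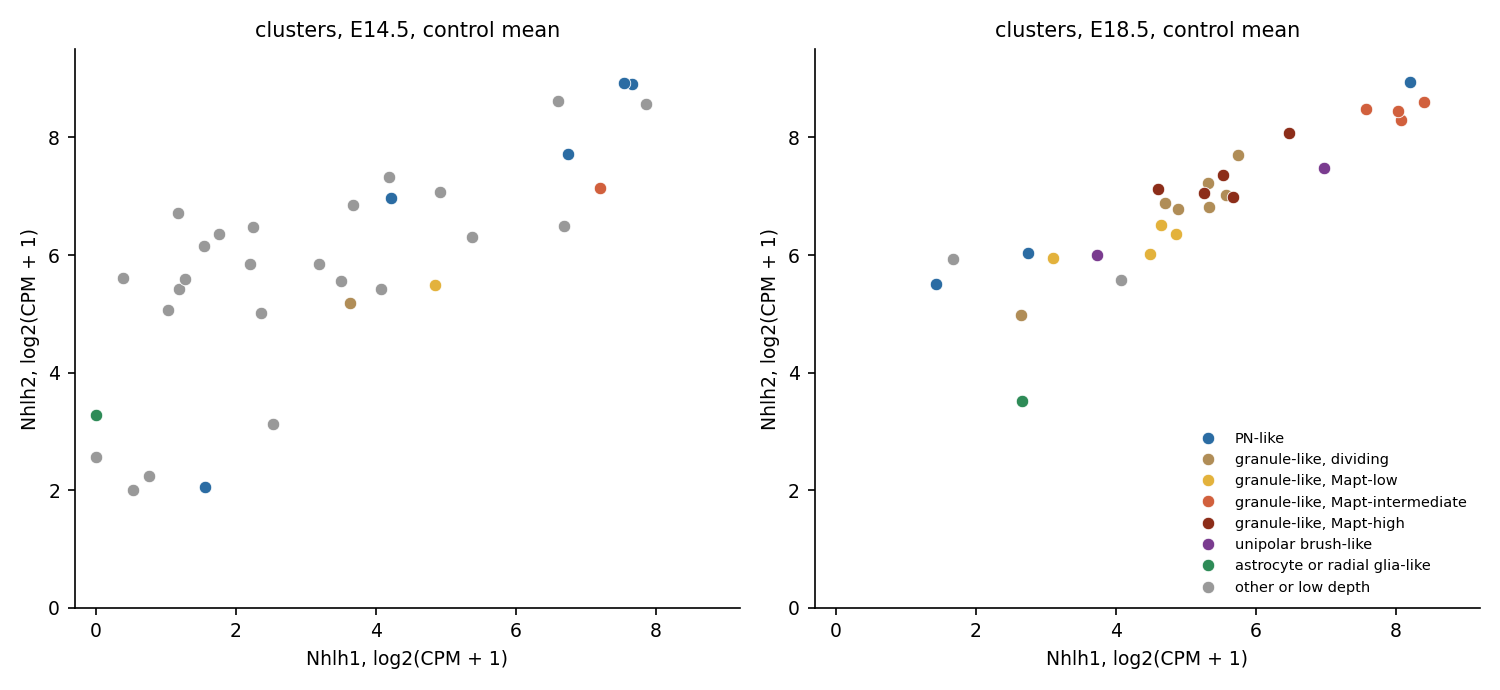
Control mean of Nhlh1 (horizontal) and Nhlh2 (vertical), as log2(CPM + 1), in each cluster of E14.5 (left) and E18.5 (right), coloured by cell class. At E14.5 many clusters hold Nhlh2 with little Nhlh1, and at E18.5 PN-like cluster 22 and the Mapt-intermediate granule-like clusters stand at the upper right in both genes, while PN-like clusters 0 and 23 hold little Nhlh1 (5.74 and 1.70 CPM).

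Outside the PN-like class at E14.5, 3 populations with high levels of both genes are given here. Cluster 16, led by *Zfp503*, *Hoxb2* and *Lhx2*, had *Nhlh1* at 238, 283 and 175 CPM and *Nhlh2* at 398, 396 and 339 CPM in controls. Cluster 23, led by *Igfbpl1*, *Lhx2* and *Lhx9*, had *Nhlh1* at 103, 101 and 86.0 CPM and *Nhlh2* at 369, 419 and 395 CPM. Granule-like cells with an intermediate level of *Mapt*, which encodes the axonal protein tau and was used here to grade maturity, had *Nhlh1* at 136, 181 and 121 CPM and *Nhlh2* at 159, 119.5 and 141 CPM. Cluster 16 was thus within or above the range of the migrating PN-like cells for *Nhlh1*, and cluster 23 combined a high *Nhlh2* with less *Nhlh1* than cluster 16. Over 33 clusters the highest *Nhlh1* means were those of clusters 16, 12, 13, 9 and 3, each overlapping the next, where 12 and 13 are the pair of PN-like clusters that divide by littermate pair, each averaged over the 2 control libraries with 10 or more cells. For *Nhlh2* the order was clusters 13 and 12, then 23 and 16 without overlap with the first pair, then 3, 2 and 9, again apart from the pair above. Cluster 2, which is not PN-like, had 159 ± 43.5 CPM of *Nhlh2* and 17.3 ± 3.39 CPM of *Nhlh1*.

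More mature E14.5 clusters kept *Nhlh2* and had little *Nhlh1*. Cluster 14, led by *Meg3*, *Lhx9* and *Sst*, had 103 ± 7.0 CPM of *Nhlh2* and 1.26 ± 1.09 CPM of *Nhlh1*. Granule-like cells low in *Mapt* had lower levels of both, with 27.7 ± 4.82 and 43.7 ± 6.15 CPM (*Nhlh1* and *Nhlh2*) in non-dividing cells and 11.3 ± 4.99 and 35.4 ± 7.15 CPM in dividing cells. In 169 astrocyte or radial glia-like cells not 1 UMI of *Nhlh1* was read, which allows up to 1.78% of such cells to hold a UMI and sets no limit on cells expressing the gene below detection, and 11 UMIs of *Nhlh2* were read. By UMI count, PN-like cells were 21.2% of control cells and held 48.7% ± 4.48 of all *Nhlh1* UMIs and 45.8% ± 7.85 of all *Nhlh2* UMIs. Cluster 16 held 16.0% ± 5.33 and 10.1% ± 3.58 in 3.17% of the cells, and *Mapt*-intermediate granule-like cells 15.7% ± 4.50 and 6.21% ± 2.92 in 5.22% of the cells.

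At E18.5 the bulk of both genes was in the granule lineage. Granule-like cells made up 75.5% of control cells and held 86.2% ± 0.869 of *Nhlh1* UMIs and 84.2% ± 2.30 of *Nhlh2* UMIs. The *Mapt*-intermediate class alone, 15.2% of the cells, held 53.1% ± 2.71 and 31.9% ± 1.11. In that class *Nhlh1* stood at 281, 291 and 275 CPM and *Nhlh2* at 343, 367 and 364 CPM in controls, above every other granule-like class in each library. *Mapt*-high cells had 53.2, 56.2 and 44.0 CPM of *Nhlh1* and 165, 174 and 149.7 CPM of *Nhlh2*. Dividing granule-like cells, which are amplifying progenitors of the external granule layer, had 46.9, 29.9 and 32.1 CPM of *Nhlh1* and 138, 127 and 117 CPM of *Nhlh2*, and non-dividing *Mapt*-low cells had 24.2, 23.5 and 25.6 CPM and 72.6, 78.9 and 79.5 CPM. Both genes were therefore lowest not in dividing cells but in non-dividing *Mapt*-low cells, without overlap between those classes in any control library.

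Along the pseudotime of 23965 granule-like cells, both genes dipped and then rose. The root was the cell with the highest score of dividing-cell markers. Control *Ccnd1*, a progenitor marker, went from 557 CPM in decile 1 to 172 CPM in decile 3 and back to 389 CPM in decile 4. *Ccnd1* thus did not fall steadily over the early deciles, and the part of cell cycle order in the dip was not tested. Control *Nhlh1* went from 48.2 ± 19.3 CPM in decile 1 to 19.9 ± 0.505 CPM in decile 3, peaked at 337 ± 17.3 CPM in decile 7 and ended at 13.5 ± 1.89 CPM. *Nhlh2* went from 154 ± 18 to 77.7 ± 5.22 CPM in decile 4, peaked at 417 ± 21.8 CPM in decile 7 and ended at 90.6 ± 0.767 CPM. Here the mean rank of *Nhlh2* UMIs came before that of *Nhlh1*, by 1.93, 4.25 and 2.41 in controls 1 to 3, with 0 of 6 libraries the other way round. The difference, *Nhlh2* minus *Nhlh1*, was -2.76 ± 1.18 (exact two-sided sign-flip test over 6 libraries, p = 0.031, the smallest possible), and it was -1.96, -4.25 and -1.75 in mutants 1 to 3. These too were littermate pairs, and over the 3 pair means the exact sign-flip p was 0.25, again the smallest possible. In decile 1 of PN-like cells *Nhlh2* had been at 2.34 ± 1.47 CPM.

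Smaller E18.5 classes also carried the genes. PN-like cells had *Nhlh1* at 54.7, 49.0 and 27.5 CPM and *Nhlh2* at 135, 135 and 83.7 CPM in controls. Within them cluster 22, led by *Crabp1*, *Hoxb3* and *Robo3*, of which *Crabp1* and *Robo3* also mark migrating neuron-2-like cells at E14.5, had *Nhlh1* at 283, 299.9 and 298 CPM and *Nhlh2* at 478, 478 and 509 CPM. The larger PN-like cluster 0, led by *Lmo4* and *Id2*, had 5.74 ± 1.49 and 64.8 ± 15.6 CPM, and cluster 23 had 1.70 ± 1.58 and 44.7 ± 13.5 CPM. Astrocyte or radial glia-like cells had 5.36 ± 5.03 and 10.5 ± 10.9 CPM. The *Nhlh1* means of clusters 0 and 23 lay within the range of those glia-like cells (0 to 9.99 CPM). In PN-like cells the high levels were thus in the 464 cells of cluster 22, beside 2389 cells in cluster 0 and 405 in cluster 23. Over 28 clusters, *Nhlh1* was highest in granule-like cluster 3 (337 ± 25.8 CPM), then in cluster 22 and then in clusters 13 and 15, where only neighbours 13 and 15 overlapped, although the highest library of cluster 15 (291 CPM) also reached the range of cluster 22. *Nhlh2* was highest in cluster 22 (489 ± 18 CPM) and next in cluster 3 (387 ± 16.9 CPM), without overlap. Unipolar brush-like cells, marked by *Eomes*, split into cluster 7 with 125 ± 15.9 and 178 ± 20.0 CPM (*Nhlh1* and *Nhlh2*) and cluster 10 with 12.3 ± 2.75 and 63.0 ± 5.87 CPM.

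By P5 *Nhlh1* was almost absent from the PN and *Nhlh2* persisted. In PN-like cells 8 UMIs of *Nhlh1* were read among 151313274 in library 1 (0.0529 CPM, 95% exact Poisson interval 0.0228 to 0.104) and 22 among 103452301 in library 2 (0.213 CPM, 0.133 to 0.322). *Nhlh2* was at 27.5 and 29.9 CPM in the same cells. At 5000 UMIs per cell, 0.03% of PN-like cells (2 of 8144) and 0.16% ± 0.23 of microglia-like cells (1 of 829) held *Nhlh1*. Microglia-like cells should lack it and so give the background of free RNA, but 1 cell is too few to set that level. For *Nhlh2* the share was 13.6% ± 1.26 in PN-like cells against 0.93% ± 0.86 in microglia-like cells. Before thinning, PN-like cells had a median of 28566 UMIs and microglia-like cells 10517, and these intervals cover counting error only.

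*Nhlh2* differed among the P5 PN subtypes, which were named by the study's markers. It was highest in PN5-like cells, which express *Nr2f2* and *Lrrn3*, at 62.7 and 59.8 CPM. PN2-like cells had 34.6 and 37.9 CPM, PN3-like cells 27.2 and 25.8 CPM, PN1-like cells 19.5 and 20.4 CPM, PN4-like cells 18.03 and 20.04 CPM and PN6-like cells 11.9 and 12.7 CPM. Neighbours in this order were apart in both libraries except PN1-like and PN4-like cells. The PN2-like value joined cluster 0, at 44.3 and 48.3 CPM, and cluster 1, at 26.6 and 26.5 CPM, and the latter lay within the range of PN3-like cells. Unipolar brush-like cells had 25.6 and 32.7 CPM, a small unnamed cluster of 78 cells led by *Meis2* had 75.9 and 66.3 CPM (a mean of 71.1, and of 120 with each cell thinned to 5000 UMIs), and microglia-like, oligodendrocyte lineage-like and astrocyte-like cells had 2.56 and 0.497, 3.44 and 0.782, and 3.01 and 1.21 CPM. Almost all *Nhlh1* of P5 was in library 2. Its granule-like cluster 12, with 424 of 432 cells from that library, had 163 CPM of *Nhlh1* (exact Poisson interval 149.5 to 177) and 284 CPM of *Nhlh2* (267 to 303), and the dividing granule-like cluster 17 (290 of 294 cells) had 48.4 and 166 CPM. Without those 2 clusters, which were left out after the data were seen, the P5 libraries had 0.136 ± 0.0923 CPM of *Nhlh1* and 25.6 ± 1.87 CPM of *Nhlh2*, against 3.19 ± 4.32 and 31.5 ± 10.1 CPM with them.

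**Figure D4:**
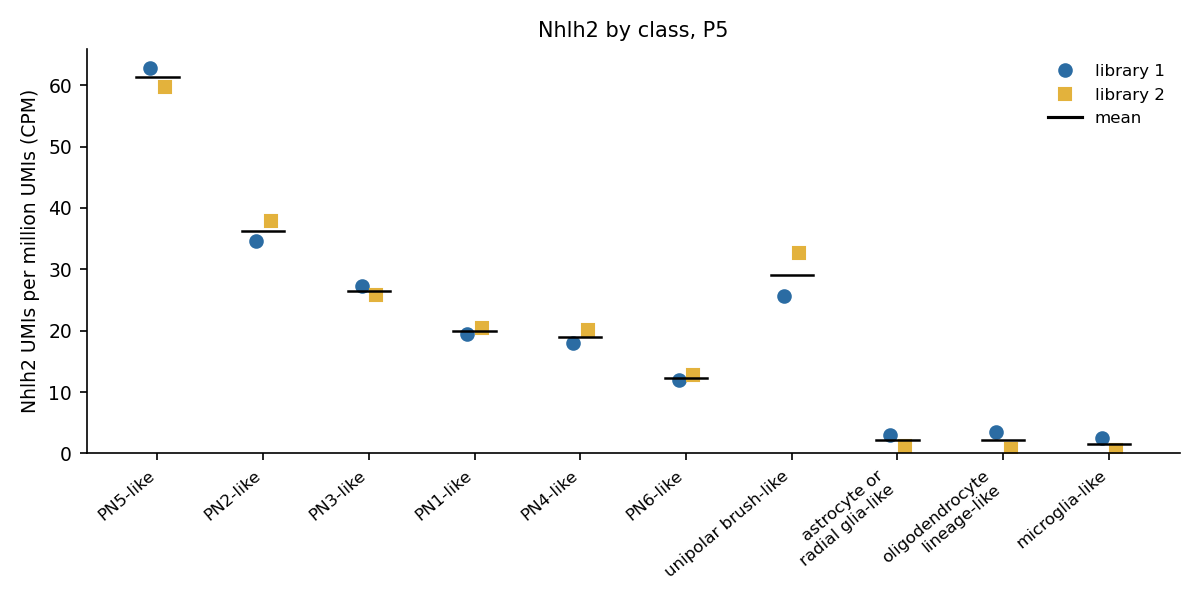
UMIs per 1000000 (CPM) of Nhlh2 in named P5 cell classes found in both libraries, 1 point per library with the mean as a bar, without the granule-like cells of library 2 (284 and 166 CPM). Of the PN subtypes PN5-like cells stand highest (62.7 and 59.8 CPM) and PN6-like cells lowest (11.9 and 12.7 CPM), and glia and microglia are near 0.

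Between genotypes, neither gene was called in all sorted cells at either stage. Mutant *Nhlh1* at E14.5 stood at 33.3, 53.2 and 29.1 CPM and mutant *Nhlh2* at 87.6, 151 and 78.1 CPM, which overlapped the controls because mutant 2 was as high as control 2. The log2 changes were -0.34 for *Nhlh1* (95% interval -0.91 to 0.24, adjusted p = 0.618) and -0.26 for *Nhlh2* (-0.85 to 0.33, adjusted p = 0.710). With a mitochondrial limit of 10% in place of 5% they were -0.17 and -0.16, neither called. Without mutant 2 they were -0.62 (adjusted p = 0.225) and -0.59 (adjusted p = 0.211), without mutant 3 they were -0.19 and -0.10, and with the libraries of Cell Ranger 5.0.1 alone, which leave control 3 as the only control, they were 0.01 and -0.00, all of them not called. By the same rule 0.0195% of genes were called, and 17.4% when littermates were blocked, where neither *Nhlh* gene passed either (adjusted p = 0.0699 and 0.118). At E18.5 mutants had *Nhlh1* at 59.99, 73.7 and 70.3 CPM and *Nhlh2* at 139, 162 and 156 CPM, within the control range or next to it. The changes were -0.08 (-0.35 to 0.18) and -0.00 (-0.20 to 0.20), where 0% of genes were called (115 of 9883 had an unadjusted p under 0.05) and 0.253% with the block. No difference in genotype effect between the stages was called, in a fit made only without the littermate block. The interaction was 0.27 for *Nhlh1* (adjusted p = 0.872) and 0.28 for *Nhlh2* (adjusted p = 0.866). Of 10533 genes, 0% were called by edgeR and 795 had an unadjusted p under 0.05. With 1 library left out the interaction ran from 0.12 and 0.11 (without E14.5 mutant 3) to 0.55 and 0.61 (without E14.5 mutant 2, adjusted p = 0.339 and 0.243).

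Within the E14.5 PN-like states, *Nhlh1* was lower in every mutant than in any control in intermediate progenitors. It stood at 5.89, 17.2 and 6.39 CPM in mutants against 23.9, 26.7 and 20.2 CPM in controls. Progenitors, with 0.793 to 1.51 CPM in mutants against 1.87 to 2.06 CPM in controls, did not overlap either but rested on few UMIs. *Nhlh1* was below the filter for a test there. With no filter on genes its edgeR log2 change in progenitors was -0.69 (SE 0.655, adjusted p = 0.956), which was not called. In intermediate progenitors the edgeR log2 change was -1.43 (SE 0.361), which did not pass over all genes (adjusted p = 0.323) but did with the littermate block (-1.43, adjusted p = 0.0224), with no filter on genes (adjusted p = 0.000384) and without mutant 2 (-1.93, adjusted p = 0.00950). It did not pass with DESeq2 (-1.39, adjusted p = 0.157) or without TMM (-1.41, adjusted p = 0.388). Nor did it pass with any of the other 5 libraries left out (-1.50 to -1.16, adjusted p = 0.496 to 0.907). With the Cell Ranger 5.0.1 libraries alone, which leave control 3 as the only control, the change was -1.24. The share of gene tests called was 0.0146% over the 5 states, and 0.283% were called lower with the block. In intermediate progenitors alone, 52 of 9129 genes were called lower with the block and 57 higher. The result depended on how the state was drawn. At a finer clustering the controls had 23.4, 32.2 and 16.5 CPM, the mutants had 5.6, 67.0 and 5.05 CPM, and the change was 0.05. *Nhlh2* in intermediate progenitors stood at 28.0, 66.3 and 18.54 CPM in mutants, overlapping the controls (-0.56, adjusted p = 0.9997). With 1 library left out its change ran from -1.11 (without mutant 2) to -0.22 (without mutant 3), and it was not called.

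In the migrating neurons the ranges of both genes overlapped between genotypes. Mutant migrating neuron-1-like cells had *Nhlh1* at 137, 194 and 126 CPM (-0.31, 95% interval -0.71 to 0.08) and *Nhlh2* at 267, 351 and 241 CPM (-0.27, -0.59 to 0.05). Each of these values was below that of the control littermate, and with the block the changes were -0.33 (95% interval -0.49 to -0.16, adjusted p = 0.110) and -0.28 (-0.45 to -0.11, adjusted p = 0.202), which were not called. Unblocked with 1 library left out, the *Nhlh1* change ran from -0.54 (without mutant 2) to -0.18 (without control 2). That of *Nhlh2* ran from -0.45 (without mutant 2) to -0.16 (without mutant 3), and neither gene was called. In migrating neuron-2-like cells *Nhlh1* stood at 234, 247 and 221 CPM (0.05, -0.16 to 0.26) and *Nhlh2* at 518, 557 and 475 CPM (-0.09, -0.30 to 0.12). Those intervals exclude a change of 1 on the log2 scale in either direction in both migrating states. In differentiated neuron-like cells the changes were -0.30 (-1.50 to 0.91) and -0.16 (-1.02 to 0.70), too wide to tell. Of 8 tests of the 2 genes in these states, 0 were called by edgeR without the block, 1 had an unadjusted p under 0.05, and 1 was called with the block.

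**Figure D5:**
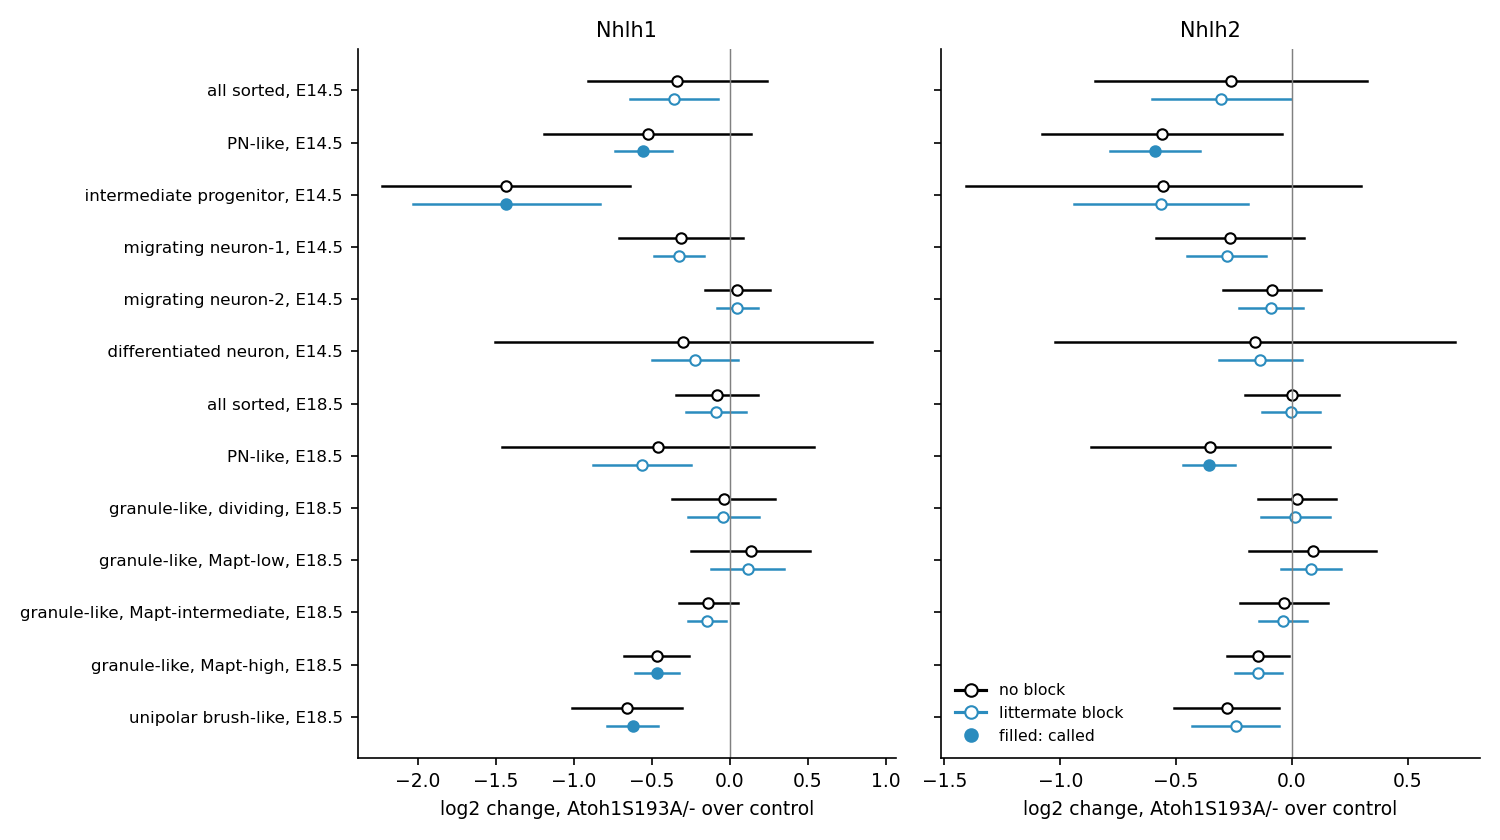
log2 change (Atoh1S193A/- over control, edgeR) of Nhlh1 (left) and Nhlh2 (right) in all sorted cells, in the PN-like states of E14.5 and in cell classes, with 95% intervals, without (black) and with (blue) the littermate block, where filled points were called. Without the block no point is called, and with it Nhlh1 is called in E14.5 PN-like cells and intermediate progenitors and in E18.5 Mapt-high granule-like and unipolar brush-like cells, and Nhlh2 in PN-like cells of both stages.

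Over the PN-like class of E14.5 as a whole, a sum added after the data were seen, both genes were lower in mutants within each littermate pair. Controls had *Nhlh1* at 101, 144 and 88.1 CPM and mutants at 58.5, 115 and 64.7 CPM, while *Nhlh2* stood at 258, 316 and 227 CPM and at 148, 255 and 156 CPM. The groups overlapped for both genes, and the changes were -0.53 (adjusted p = 0.301) and -0.56 (adjusted p = 0.176) without the block. With it they were -0.55 (adjusted p = 0.00309) and -0.59 (adjusted p = 0.00308), and without mutant 2 *Nhlh2* was called unblocked as well (-0.86, adjusted p = 0.0262) while *Nhlh1* was not (-0.90). With each other library left out neither was called unblocked, and the changes were smallest without control 2 (-0.28 and -0.41). This class held many called genes, with 6.75% of genes called without the block and 11.2% called lower with it. The unblocked count of 682 genes rested on single libraries and was 0 without control 1, 3 without mutant 3, 247 without control 3 and 334 without mutant 1. Moving with the class result, progenitor-like cells, which have almost none of either gene, were 8.58% ± 3.09 of control and 29.7% ± 2.71 of mutant PN-like cells (exact permutation p = 0.1, the smallest possible). The 2 migrating states together were 45.2%, 54.6% and 41.6% of PN-like cells in controls and 29.7%, 47.7% and 34.6% in mutants (exact permutation p = 0.3, unpaired), lower in the mutant in 3 of 3 littermate pairs, and the part of these shares in the class result was not tested.

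Cluster by cluster at E14.5, 0 of 34 tests of the 2 genes in 26 clusters were called by edgeR (7 had an unadjusted p under 0.05), beside 0.00669% of all gene tests. With the block 3 were called, beside 0.342%. Those were PN-like cluster 3, with *Nhlh1* at -0.59 (adjusted p = 0.0242) and *Nhlh2* at -0.48 (adjusted p = 0.0306), and cluster 25, led by *Nefl* and *Meis2*, with *Nhlh2* at 0.91 (adjusted p = 0.00349). Cluster 3 is led by *Crabp1*, *Gadd45g* and *Atoh1*, and in cluster 25 pair 2 held 187 control and 177 mutant cells, with 14 to 61 in each other library. Without mutant 2 the *Nhlh2* change of cluster 25 was -0.36, and without control 2 it was 2.50. Cluster 16, the *Hoxb2*-positive population high in both genes, had changes of -0.17 (95% interval -0.57 to 0.23) and -0.18 (-0.46 to 0.10).

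At E18.5 *Nhlh1* was lower in mutants in late granule-like and unipolar brush-like cells, by amounts that did not pass edgeR's unblocked test over the filtered genes. *Mapt*-high granule-like cells had *Nhlh1* at 35.9, 39.2 and 36.5 CPM in mutants against 53.2, 56.2 and 44.0 CPM in controls, with no overlap. The change was -0.47 (SE 0.0916, adjusted p = 0.689 without the block and 0.00966 with it), and it was also called by DESeq2 (adjusted p = 0.0342) and with no filter on genes (adjusted p = 0.0168). With 1 library left out it ran from -0.56 to -0.40 and was not called. Unipolar brush-like cells had 43.8, 62.3 and 49.7 CPM in mutants against 65.7, 95.8 and 76.5 CPM in controls, again with no overlap, and a change of -0.66 (SE 0.161, adjusted p = 0.591, and -0.62 with adjusted p = 0.00177 with the block), which was also called with no filter on genes but not by DESeq2 (adjusted p = 0.0914) or with any library left out (-0.81 to -0.49). Cluster 7, the unipolar brush-like cluster with the higher *Nhlh1*, had 70.1, 107 and 89.8 CPM in mutants against 107, 138 and 129 CPM in controls (-0.56, adjusted p = 0.350, and -0.53 with adjusted p = 0.00356 with the block, and -0.33 without mutant 1), and cluster 10 had 12.1 ± 1.21 against 12.3 ± 2.75 CPM and was below the filter for a test. *Nhlh2* in PN-like cells was called lower with the block (-0.36, adjusted p = 0.0103), with 108, 107 and 63.6 CPM in mutants against 135, 135 and 83.7 CPM, and unblocked it was not called (-0.35, and -0.55 to -0.14 with 1 library left out).

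In the *Mapt*-intermediate class, where both genes peak, mutants had *Nhlh1* at 234, 258 and 291 CPM and *Nhlh2* at 324, 356 and 390.4 CPM, which overlapped the controls (-0.14, 95% interval -0.33 to 0.05, and -0.04, -0.22 to 0.15). After the peak, in decile 9 of granule-like pseudotime, *Nhlh1* was 29.7 ± 4.10 CPM in mutants against 46.6 ± 4.17 CPM in controls, and in decile 10 it was 7.08 ± 1.42 against 13.5 ± 1.89 CPM, without overlap in either. *Nhlh2* was also lower without overlap in decile 10 (73.7 ± 6.00 against 90.6 ± 0.767 CPM), while in decile 9 its genotypes overlapped. Of 14 tests in E18.5 classes, which were also added after the data were seen, 0 were called without and 3 with the block, beside 0.0888% of gene tests called and 0.357% called lower with the block. Over 27 clusters, 0 of 46 tests were called (12 with an unadjusted p under 0.05, beside 0.107% of gene tests called), and 1 was called lower with the block, beside 0.365%. *Nhlh1* was lower in mutants in 15 of 20 clusters, with a median log2 change of -0.20, and *Nhlh2* in 19 of 26, with a median of -0.08, where the median of all genes was -0.00. Without mutant 1 these counts were 13 of 20 and 10 of 26, with a median of 0.02 for *Nhlh2*. At E14.5 *Nhlh1* was lower in 5 of 12 clusters and *Nhlh2* in 7 of 22, with medians of 0.07 and 0.17. There the direction turned with mutant 2, without which they were lower in 10 of 11 and 19 of 22, with medians of -0.41 and -0.25.

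The balance of the 2 genes was compared between genotypes as the log2 ratio of *Nhlh1* to *Nhlh2* UMIs in each library. In intermediate progenitors it was -1.07 ± 0.277 in controls and -1.91 ± 0.359 in mutants, a difference of -0.84 without overlap (exact permutation p = 0.1). In migrating neuron-2-like cells the difference was 0.14, also without overlap (exact permutation p = 0.1), and in migrating neuron-1-like and differentiated neuron-like cells it was -0.04 and -0.10 (exact permutation p = 0.9 and 0.7). With 3 against 3 libraries 0.1 is the smallest p possible, so none of these 5 comparisons could pass, and in progenitors the counts were few (-0.73, exact permutation p = 0.3).

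The genes whose control levels ran most nearly with each *Nhlh* gene across clusters were listed as a description, since clusters share libraries and depth. Over 33 clusters of E14.5 and 7709 genes, *Nhlh1* was nearest to *St18* (Pearson r = 0.93), *Cntn2* (0.92), *Shf* (0.88), *Pde1c* (0.87) and *Necab3* (0.85). *St18* encodes a zinc-finger factor of the MYT family and *Cntn2* the axonal adhesion molecule TAG-1. *Nhlh2* was nearest to *Myt1* (0.92), another gene of that family, *Map3k13* (0.91), *Erich1* (0.90), *Afap1* (0.90) and *Trp53i11* (0.89). The 2 *Nhlh* genes had r = 0.765 with each other, which placed *Nhlh2* at 33 in the list of *Nhlh1* and *Nhlh1* at 121 in that of *Nhlh2*. Over 28 clusters of E18.5 and 7450 genes each was the nearest of all to the other (r = 0.89), followed for *Nhlh1* by *Pde1c* (0.83), *Gadd45a* (0.81), *Arid3a* (0.80) and *Ncstn* (0.79), and for *Nhlh2* by *Afap1* (0.85), *Smarcd1* (0.83), *Erich1* (0.83) and *Mex3a* (0.83).

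The genes for possible partners were measured in the same E14.5 control states. *Id1* and *Id3*, whose products sequester E proteins, fell from 1303 ± 152 and 1941 ± 467 CPM in progenitor-like cells to 17.9 ± 2.54 and 8.94 ± 2.23 CPM in the migrating neuron-1 state, where the *Nhlh* genes were high. *Id2* took another course, with 594 ± 75.3 CPM in progenitors, 202 ± 33.9 CPM in migrating neuron-1 and 945 ± 157 CPM in the differentiated state. *Tcf4* was high in every state, from 1052 CPM in progenitors to 1744 CPM in the migrating neuron-2 state, and *Tcf12* ran from 145 to 428 CPM in the same states. *Lmo1* was highest in migrating neuron-1-like cells (54.6 CPM) and *Lmo4* in differentiated neuron-like cells (849 CPM). *Atoh1* itself peaked earlier, at 615 ± 116 CPM in intermediate progenitors, and *Robo3*, a receptor for midline crossing, later, at 599.8 ± 48.5 CPM in the same migrating neuron-2 cells.

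In the tests by genotype, 0 of 9 partner genes, 0 of 4 *Id* genes, 0 of 12 guidance genes and 0 of 9 other neural bHLH genes tested were called in all sorted cells at E14.5 without the block, beside 0.0195% of all genes. With it, where 17.4% of all genes were called, *Id1*, *Id3*, the partner *Ldb2*, the guidance gene *Slit2* and the bHLH genes *Atoh1*, *Olig3* and *Olig2* were called higher, and *Lmo1*, *Robo2*, *Neurod1*, *Bhlhe22*, *Neurod6* and *Ndn* lower. In the PN-like class of E14.5, *Lmo1* (-1.55) and *Lmo2* (-0.59) were called lower among 8 partner genes tested, and *Slit2* (0.96), which encodes a repulsive guidance cue, was called higher among 12 guidance genes, while 0 of 4 *Id* and 0 of 8 bHLH genes were called, beside 1.59% of all genes called lower and 5.16% called higher. Those 3 calls were lost without control 1, when 0 genes were called, and both *Lmo* calls were lost without mutant 3, when 0 genes were called lower. With the block, where 11.2% of all genes were called lower and 13.7% higher, *Id1*, *Id3*, *Tcf3*, *Slit2*, *Neo1*, *Slit1* and *Olig3* were among the list genes called higher. Of the *Id* genes, none was called higher within any of the 5 states in that kind of fit, where *Id1* and *Id2* were called lower in progenitors and *Id2* lower in intermediate progenitors. The class sums held the larger progenitor share of mutants given above (29.7% against 8.58%), and its part in these calls was not tested. In the class fit *Lmo1*, *Lmo2*, *Cntn2*, *Nrp1*, *Robo1*, *Robo2*, *Robo3*, *Bhlhe22*, *Neurod6*, *Neurod2* and *Ndn* were called lower. Between stages, where 26.5% of all genes rose and 25.1% fell, 3 of 4 *Id* genes fell from E14.5 to E18.5 in controls (*Id1* by 1.51, *Id3* by 4.29 and *Id4* by 2.66 on the log2 scale). Of 9 partner genes *Tcf4* rose by 0.48, and *Lmo1*, *Lmo2*, *Lmo3* and *Ldb2* fell by 2.98, 1.84, 1.43 and 3.1. Of 8 other bHLH genes tested *Neurod1*, *Bhlhe22* and *Neurod4* rose (2.13, 1.94 and 2.56), and *Atoh1*, *Atoh7*, *Neurod6* and *Olig3* fell (by 1.41, 2.14, 0.49 and 3.16). Of 14 guidance genes 5 rose, *Unc5b* most (2.25), and 5 fell, *Robo3* most (by 3.37). *Ndn*, the only 1 of 3 genes tied to *Nhlh2* that was tested, fell by 0.84.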

How the data were processed

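Single-cell libraries (10x 3′ v3.1) were made from sorted TdTomato-positive cells, 1 embryo per library at E14.5 and E18.5 and pooled pups at P5. The authors aligned reads and counted UMIs with Cell Ranger, and the deposited matrices hold raw UMI counts per gene and barcode. Per the file headers, 2 libraries (E14.5 controls 1 and 2) were made with Cell Ranger 3.1.0 and 12 with 5.0.1, so these 2 controls differ from the rest in software version.

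Barcodes with at least 1000 genes and under 5% mitochondrial UMIs were kept, after removal of the top 7.5% of Scrublet scores in each library. That limit lay near the median mitochondrial share of the embryonic libraries (3.67% to 5.09%). At E14.5, controls 1 to 3 kept 3248 of 7972, 6352 of 10407 and 6568 of 12869 barcodes. Mutants 1 to 3 kept 4773 of 9672, 6913 of 9000 and 6571 of 10812, a larger share in each pair. The 10% limit was run on all sorted cells only, not on states or classes. Each stage was clustered with scanpy 1.11.5 (2000 variable genes, 30 components, 15 neighbors, Leiden resolution 1) with *Nhlh1*, *Nhlh2* and 3 other named genes left out. PN-like cells were clustered again at the same resolution, and clusters were named from marker lists only as "-like". UMIs were summed per library and unit with at least 10 cells, and levels are UMIs per 1000000 (CPM). Genotypes and stages were compared with edgeR 4.0.16 (quasi-likelihood test, TMM) in R 4.3.3, over genes detected in 10% or more of cells in 1 of the groups, with Benjamini-Hochberg adjustment over all genes tested. A gene was called at an adjusted p under 0.05 and an absolute log2 change over 0.25. Clusters were not tested against each other, so their levels are given with SD and overlap.

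The paper collected each mutant with a littermate control, and same-numbered embryos were taken as littermates. Same-numbered embryos deviated together from their group means (r = 0.530, 0.812 and 0.730 for pairs 1 to 3 at E14.5, and 0.766, 0.768 and 0.918 at E18.5), so a fit with the pair as a block was run beside the main fit. For differently numbered embryos r ran from -0.668 to 0.276 at E14.5 and from -0.735 to 0.400 at E18.5. Alternatives included DESeq2 1.42.0, no TMM, no filter, no doublet removal, a 10% mitochondrial limit, finer clustering, 30 neighbors, and leaving out each library. On data simulated for E14.5 (10240 genes, 200 changed), the test recovered 81% of genes changed by 1 and 8% of genes changed by 0.5 on the log2 scale, with 9 false calls.

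Named genes were the 2 *Nhlh* genes, the 5 genes most like each across clusters, and, of fixed lists of partners, *Id* genes, guidance genes and bHLH genes, those called or highest. The members and lists were chosen with earlier results of these data known. Intervals on UMI counts and the limit for a count of 0 (3 UMIs) cover counting error only.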

Additional observations from a re-analysis of the deposited data

Results flagged for a closer look

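The rank difference between the genes along pseudotime ran opposite ways in the PN-like and the granule-like cells. The mean rank of *Nhlh2* UMIs minus that of *Nhlh1* was 3.76 in PN-like cells of E14.5 and -2.76 in granule-like cells of E18.5, and every library of one had the opposite sign to every library of the other. The difference between these values was not tested. After the peak, control *Nhlh1* fell to a smaller part of its peak level than *Nhlh2* in both lineages. In decile 10 they stood at 5.31 and 71.8 CPM in PN-like cells and at 13.5 and 90.6 CPM in granule-like cells. In decile 1 control *Nhlh2* stood at 2.34 CPM in PN-like and at 154 CPM in granule-like cells. The part of these levels in the rank differences was not tested. Lineage and stage changed together here and cannot be told apart. The 2 pseudotimes were built separately, from roots chosen by different marker scores.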

How the results depend on the processing

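Of the genes called between genotypes in all sorted cells at E14.5, the number was 2 by edgeR, 0 with the Cell Ranger 5.0.1 libraries alone (3 mutants against control 3, which was assumed to vary like the mutants), 249 with DESeq2, 11 with the 10% mitochondrial limit, 0 with no doublet removal, 1 with no filter, 1782 with the replicate block, and 0 to 1 with 1 library left out. At E18.5 it was 0, against 13 with DESeq2 and 25 with the block. For the 2 *Nhlh* genes, calls rose from 0 to 1 in the PN-like states with no filter or the block (0 to 1 with a library left out), from 0 to 3 in E14.5 clusters with the block, and from 0 to 2 with no filter or 1 with the block in E18.5 clusters. For the 2 *Nhlh* genes the block changed no call beyond those given with the results, and list genes called with it are given there. The interaction gave 0 to 1 genes with a library left out.

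Several changes reversed direction, mostly small ones. Cell Ranger 5.0.1 libraries alone, with that lone control, gave 0.00645 for *Nhlh1* in all E14.5 cells, and 0.634 and 0.435 for *Nhlh1* and *Nhlh2* in differentiated neuron-like cells. At E18.5 *Nhlh2* in all cells was 0.0122 without TMM, 0.0214 without doublet removal and 0.00210 with no filter. At Leiden resolution 2 the intermediate progenitor changes were 0.0462 and 0.232, and migrating neuron-2 *Nhlh1* was -0.0586. With 1 library left out, all E18.5 cells ranged from -0.165 to 0.0107 (*Nhlh1*) and -0.0670 to 0.0725 (*Nhlh2*), migrating neuron-2 *Nhlh1* from -0.00627 to 0.0981, differentiated neurons from -0.853 to 0.263 and -0.565 to 0.242, *Mapt*-intermediate *Nhlh2* from -0.0976 to 0.0347, dividing cells from -0.149 to 0.158 and -0.0340 to 0.0936, *Mapt*-low cells from -0.0759 to 0.320 and -0.0154 to 0.235, and cluster 25 from -1.50 to 3.93 and -0.356 to 2.50. The ratio ranged from -0.233 to 0.0207 in differentiated and from -0.153 to 0.0344 in migrating neuron-1-like cells. The rank difference along pseudotime ranged from 3.33 to 4.17 and from -2.96 to -2.46, where 5 libraries allow no exact p below 0.0625, and over littermate pair means, added after the data were seen, it was 3.76 and -2.76 with an exact p of 0.25, the smallest that 3 pairs allow. The causes were not tested.

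Thinned to 5000 UMIs, the highest P5 means among clusters with 10 or more cells in both libraries moved from 0.627 to 0.972 CPM (*Nhlh1*) and from 71.1 to 120 CPM (*Nhlh2*, the *Meis2* cluster). By Spearman's rho, 3 of the 5 nearest genes of *Nhlh1* at E14.5 were shared, and 2 and 2 at E18.5. Few UMIs of *Nhlh1* were read in E14.5 progenitors, which limits the precision there.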

Other observations

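A cluster of 38 inhibitory neuron-like cells at E18.5, led by *Cdkn1c*, *Tfap2b* and *Nrxn3* and holding *Pax2* and *Slc32a1*, was high in *Nhlh2*. Its 9, 10 and 13 cells in mutants 1 to 3 had 768, 604 and 441 CPM of *Nhlh2*, and 66.4, 44.7 and 24.1 CPM of *Nhlh1* from 7, 4 and 3 UMIs. The 6 cells of control 3 had 545 CPM of *Nhlh2*, and too few control cells were present for a comparison between genotypes.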
